A study of Homo sapiens with 6 samples.

Results

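The levels of 36 splicing regulators, the SR proteins and hnRNP proteins with a few close partners, were followed by RNA sequencing in U2OS 2-6-3 cells. RefSeq accessions of the deposited tables were matched to gene symbols, and each gene was represented by its primary-chromosome entry with the largest summed mean signal. All 36 members were found among the 26835 genes represented in this way, and all 36 had a test in each comparison. They comprise 8 SR proteins, 4 SR-like splicing factors, 7 proteins of the hnRNP A/B and D families, 4 of the hnRNP F/H family, 8 other hnRNP proteins, and 5 regulators of the PTB, RBFOX and MBNL families.

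U2OS 2-6-3 is a clone of a human osteosarcoma line that carries an integrated array of tet operators next to a reporter whose RNA holds MS2 stem loops. The 6 libraries formed 3 groups of 2. Untransfected cells received neither plasmids nor reagent. Mock cells were transfected with TetR-RFP and YFP, and sample cells with mCherry-MCP, which marks the MS2 loops, CIBN-TetR, which sits on the tet operators, and PHR-YFP-VP16, an activator that blue light joins to CIBN. Roche Xtreme gene was the reagent in both transfected groups. All 3 groups grew in serum free of doxycycline and stood overnight under white light, so an effect of light was not tested. A change against untransfected cells can come from plasmids or reagent, and these cannot be told apart. The transfections were transient, and the share of cells that took up plasmid was not analysed here. Whether the 2 libraries of a group came from separate cultures is not in the labels, and the p-values below reflect the spread between libraries, which may be technical.

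SR proteins carry RNA recognition motifs and a domain rich in arginine and serine. They bind exonic enhancers and help the spliceosome to recognise an exon, and kinases such as the SRPK and CLK families control where they are and what they bind. The hnRNP proteins coat nascent transcripts, and many of them silence exons or block splice sites, while PTB, RBFOX and MBNL proteins favour or repress exons according to where they bind around them. Many members also regulate their own messages through poison exons that send part of the transcripts to nonsense-mediated decay.

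For 5 members the sequence upstream of the gene is shown, since the results turn on them: MBNL2 fell most, HNRNPAB rose most, PTBP1 rose in both transfected groups, and the paralogs HNRNPH1 and HNRNPH2 moved apart in mock cells. The letters are those of RefSeq promoters on build GRCh38.p14, written 5′ to 3′ along the gene, from 250 bases before the RefSeq start down to the first base of the deposited entry. The deposited entries start 26 (HNRNPAB), 39 (HNRNPH1), 44 (MBNL2), 60 (PTBP1) and 89 (HNRNPH2) bases upstream of that RefSeq start, so the transcribed stretch is not shown. Capitals mark matches on either strand to the E box CACGTG, the AP-1 type site TGANTCA, the site of nuclear factor Y, CCAAT, the GC box GGGCGG, the ETS type site CCGGAAG, or the box of TATA promoters, TATAAA, and matches may overlap. The stretches lie at chr13:97222083-97222288, plus strand, for MBNL2, at chr5:178204283-178204506, plus strand, for HNRNPAB, at chr19:797202-797391, plus strand, for PTBP1, at chr5:179623711-179623921, minus strand, for HNRNPH1, and at chrX:101407972-101408132, plus strand, for HNRNPH2.
MBNL2: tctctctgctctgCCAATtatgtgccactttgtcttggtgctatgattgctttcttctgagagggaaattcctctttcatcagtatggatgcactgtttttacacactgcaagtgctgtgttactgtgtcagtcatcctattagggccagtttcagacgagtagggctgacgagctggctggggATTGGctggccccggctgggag
HNRNPAB: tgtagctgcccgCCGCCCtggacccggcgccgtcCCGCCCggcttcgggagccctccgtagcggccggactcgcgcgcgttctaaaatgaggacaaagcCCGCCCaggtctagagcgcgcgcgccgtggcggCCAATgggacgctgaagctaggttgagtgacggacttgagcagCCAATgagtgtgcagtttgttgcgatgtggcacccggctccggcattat
PTBP1: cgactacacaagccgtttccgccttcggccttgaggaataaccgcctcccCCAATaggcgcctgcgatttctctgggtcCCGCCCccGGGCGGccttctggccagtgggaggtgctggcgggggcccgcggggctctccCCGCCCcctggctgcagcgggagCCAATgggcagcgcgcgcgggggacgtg
HNRNPH1: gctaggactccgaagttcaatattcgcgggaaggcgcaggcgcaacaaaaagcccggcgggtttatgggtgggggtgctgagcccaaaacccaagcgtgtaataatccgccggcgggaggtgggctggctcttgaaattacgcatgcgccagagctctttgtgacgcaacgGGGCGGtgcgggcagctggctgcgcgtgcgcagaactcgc
HNRNPH2: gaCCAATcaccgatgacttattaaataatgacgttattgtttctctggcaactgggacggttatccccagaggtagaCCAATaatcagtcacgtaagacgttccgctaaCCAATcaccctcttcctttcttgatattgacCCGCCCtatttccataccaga

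The MBNL2 stretch holds CCAAT matches and no GC box, while those of HNRNPAB and PTBP1 hold GC boxes and CCAAT matches. HNRNPH1 shows a single GC box, and HNRNPH2 shows 3 CCAAT matches and 1 GC box. A TATAAA match of HNRNPAB runs over the end of its stretch and is not marked, and the CACGTG matches of HNRNPH2 lie beyond the stretch shown. A promoter window of 300 bases, from 250 before to 50 after the start, was matched by symbol for 32 of the 36 members. For members the RefSeq start nearest the deposited entry was taken, and for all genes the first start listed, so the shares below rest on unlike choices. The starts taken for MBNL1 and PTBP3 lie 391 and 638 bases from those of their deposited entries. Their median GC content was 65% against 58.3% over 27305 promoters. GGGCGG was in 65.6% of the member windows and 44.6% of all, and CCAAT in 46.9% and 35.7%. CACGTG was in 18.8% (6 members, among them HNRNPH2, HNRNPD and MBNL1) and 7.43%. CCGGAAG was in 12.5% and 10.7%, TATAAA in 12.5% and 12%, and TGANTCA in 0 of 32 windows and 7.76% of all. These matches are descriptions of the letters and were not tested.

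Reads summed over entries ran from 44594507 to 54177551 in 5 libraries, and the other one, of the sample group, had 9579278. In each group the deeper library is called a and the shallower b, because the labels' replicate numbers are not tied to the values. The sample pair stood apart: the SD of the log2 ratio of library a to b was 0.373 over 11485 genes, against 0.151 in the untransfected and 0.181 in the mock pair. The reporter sequence ECFP-SKL followed the labels, with 24794 and 23754 normalized reads in sample cells against 26.4 to 63.8 elsewhere. Of 7 osteoblast-lineage markers 6 reached 10 normalized reads in every group, with sums of 67645 to 87131, mostly VIM and SPARC, while SP7, a defining osteoblast factor, was at or near 0. Single markers moved with transfection: RUNX2 went from 379 and 414 normalized reads in untransfected to 66.7 and 64.0 in mock cells (deposited log2 fold change -2.49, adjusted p = 5e-35). ALPL went from 57.2 and 68.4 to 764 and 868 (3.62, adjusted p = 1.5e-99), and SPARC was at -0.60. Of 5 epithelial markers 4 did (sums of 12181 to 17532, nearly all KRT8 and KRT18). Blood markers summed to 14.3 to 115.8, with CD3E at 0 in all libraries and HBB at 103.3 and 61.8 in sample cells. HBB was called higher in sample against mock cells (deposited log2 fold change 0.38, adjusted p = 0.0191), groups between which the reporter also differed. A link of HBB to the reporter was not tested. The 3 endothelial markers summed to 131.2 and 147.5 in untransfected and 15.8 to 25.0 in transfected cells, a fall of VWF alone. CDH5 was at 7.1 or less and PECAM1 at 12.4 or less in every library. The part of these markers in the results was not tested. In bulk RNA, fewer cells of a type and less RNA per cell cannot be told apart.

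The first comparison set mock against untransfected cells and addressed what transfection with control plasmids did to the splicing regulators. Most of them rose: 28 of 36 were higher and 4 were lower at an adjusted p under 0.05 in the authors' deposited table, which holds DESeq2 Wald tests, and 4 were not called. Here and below, every log2 fold change, SE and adjusted p that is not credited to limma-voom is a value of the authors' deposited tables, positive where the first group named is higher and drawn toward 0 in all 3 tables, while normalized reads per library were recovered from those tables. The share called is 88.9% of members, while 50.9% of all 17081 genes tested were called. Called higher were 77.8% of members and 27.5% of all genes, and called lower were 11.1% and 23.4%. Well-expressed genes are called more often, so the members were also set beside the 8730 genes with a mean signal of at least 500. Of these 67.1% were called, 43.9% higher and 23.3% lower. The members' median log2 fold change was 0.37, with a range of -2.15 to 0.98, and that of the well-expressed genes was 0.15. Both mock libraries lay above both untransfected ones for 30 members and below for 4, shares that were 39% and 40.6% over all genes tested and 53.1% and 32.5% over well-expressed ones.

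**Figure D1:**
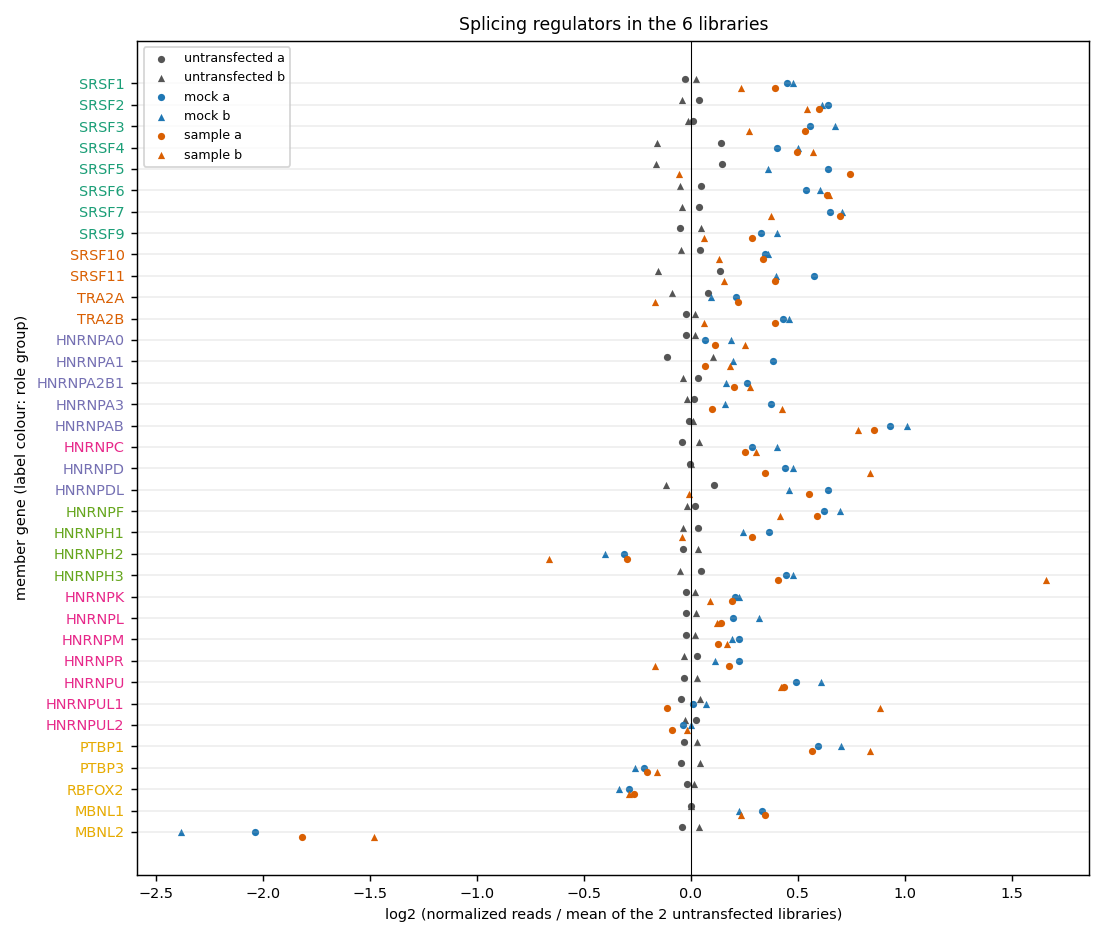
Normalized reads of each of the 36 members in the 6 libraries, as the log2 ratio to the mean of the 2 untransfected libraries (vertical line at 0), with circles for library a, triangles for library b and label colours for the role groups. Most mock and sample points lie right of the line, MBNL2 lies far left, and sample library b of HNRNPH3, HNRNPUL1 and SRSF5 lies away from its partner.

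All 8 SR proteins among the members rose in mock cells, with a median log2 fold change of 0.55 and a range of 0.38 to 0.69 in the authors' deposited table. SRSF8 and SRSF12, counted here with the SR-related proteins, were not called (0.13, adjusted p = 0.264, and -0.47, adjusted p = 0.327). Beside the role counts that follow, 27.5% of all genes tested and 43.9% of well-expressed genes were called higher, and 23.4% and 23.3% lower. SRSF1, the founding member, which promotes exon inclusion and also acts in export and translation, was among the 4 members with the most reads: 13659 and 14185 normalized reads in untransfected cells, 19046.5 and 19417 in mock cells, and 18299.5 and 16384 in sample cells. Its mock and untransfected libraries did not overlap, and the deposited log2 fold change was 0.48 (SE 0.06, adjusted p = 1.62e-13). SRSF2, a nuclear SR protein that binds exonic enhancers, had 7009 and 6627 normalized reads in untransfected cells, 10624 and 10432 in mock cells, and 10347 and 9931.5 in sample cells. Both transfected groups lay above the untransfected libraries, and the mock rise was 0.64 (SE 0.07, adjusted p = 1.21e-20). SRSF3, the smallest SR protein and an adaptor for mRNA export, had 9125.5 and 8963 normalized reads in untransfected cells, 13293 and 14416 in mock cells, and 13095 and 10919.7 in sample cells. Its mock change was 0.63 (SE 0.07, adjusted p = 6.6e-19), again without overlap.

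SRSF6, which regulates alternative exons in several tissues, had 3235 and 3026 normalized reads in untransfected cells, 4554 and 4764 in mock cells, and 4872 and 4904 in sample cells. The 4 transfected libraries lay close together and above the untransfected pair, and its mock log2 fold change was 0.59 (SE 0.08, adjusted p = 7.76e-14). SRSF7, an SR protein with a zinc knuckle and an export adaptor like SRSF3, had 4891 and 4621 normalized reads in untransfected cells, 7462 and 7757.5 in mock cells, and 7711 and 6172 in sample cells. Its mock change, 0.69 (SE 0.07, adjusted p = 1.22e-21), was the highest of the 8. SRSF5, whose message responds to growth signals, had 2457 and 1981 normalized reads in untransfected cells, 3461 and 2855 in mock cells, and 3722 and 2137 in sample cells. Library a was the higher one in all 3 groups, the mock pair lay above the untransfected pair, and the deposited change was 0.52 (SE 0.11, adjusted p = 8.74e-06). In limma-voom on the recovered counts the SRSF5 change was 0.50 with an adjusted p of 0.0507, just short of the threshold. SRSF4, the largest of the SR proteins, had 991 and 805 normalized reads in untransfected cells, 1187 and 1272 in mock cells, and 1267 and 1334 in sample cells, with a mock log2 fold change of 0.46 (SE 0.12, adjusted p = 0.000195). SRSF9, a short SR protein close to SRSF1, rose by 0.38 (SE 0.07) on the same scale.

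Among the SR-like factors 3 of 4 rose in mock cells. SRSF11, an SR-related protein found with the core splicing machinery, had 2509.9 and 2049 normalized reads in untransfected cells, 3404 and 3003 in mock cells, and 2995.5 and 2536 in sample cells. The untransfected and mock libraries did not overlap, and the mock log2 fold change was 0.50 (SE 0.10, adjusted p = 2.98e-06). TRA2B, a sequence-specific activator that binds purine-rich enhancers, rose by 0.46 (SE 0.07), and SRSF10, which acts as a repressor when dephosphorylated, by 0.37 (SE 0.09). The entry that stands for SRSF10 is a noncoding model of the gene. TRA2A, the paralog of TRA2B, was not called: its log2 fold change was 0.17 (SE 0.10, adjusted p = 0.155).

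In the hnRNP A/B and D families 6 of 7 members rose in mock cells, with a median of 0.31. HNRNPAB, a nuclear RNA-binding protein that also travels with mRNA in the cytoplasm, had 5298 and 5365 normalized reads in untransfected cells, 10169.6 and 10732 in mock cells, and 9648 and 9157 in sample cells. Its 4 transfected libraries lay far above the untransfected pair, and the mock log2 fold change of 0.98 (SE 0.07, adjusted p = 3.5e-46) was the largest rise of the 36 members. HNRNPD, also called AUF1, which binds AU-rich elements and speeds or slows mRNA decay, had 2451 and 2455 normalized reads in untransfected cells, 3333 and 3422 in mock cells, and 3119 and 4389 in sample cells. The mock pair lay above the untransfected pair, with a change of 0.48 (SE 0.08, adjusted p = 1.9e-09). HNRNPDL, the paralog of HNRNPD, had 6194 and 5296 normalized reads in untransfected cells, 8975 and 7894 in mock cells, and 8431 and 5711 in sample cells. Its mock change was 0.57 (SE 0.09, adjusted p = 8.1e-10), without overlap between the mock and untransfected libraries. The HNRNPDL entry is a noncoding RefSeq model that GENCODE classes as a target of nonsense-mediated decay, so its reads need not follow the coding message.

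HNRNPA1 and HNRNPA2B1, the abundant exon-silencing proteins of the core particle, rose by 0.31 (SE 0.11) and 0.23 (SE 0.07), and HNRNPA3 by 0.29 (SE 0.12). HNRNPA1 is uncertain, since the annotation lists 74 pseudogenes of it with which reads may be shared. Its second entry, a noncoding model, had a mock log2 fold change of 0.53 (adjusted p = 0.00201). HNRNPA3 has 16 pseudogenes, HNRNPC 9, HNRNPK 5 and HNRNPDL 4, and 17 members have at least 1. HNRNPA0, a single-exon paralog, was not called (log2 fold change 0.15, SE 0.08, adjusted p = 0.138).

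The F/H family, whose proteins bind runs of guanines, split. HNRNPF, one of the 4 members with the most reads, had 11934 and 11631 normalized reads in untransfected cells, 18121 and 19117 in mock cells, and 17732 and 15762 in sample cells. Its transfected libraries all lay above the untransfected ones, with a mock change of 0.68 (SE 0.07, adjusted p = 4.68e-24). HNRNPH1 had 6942 and 6593 normalized reads in untransfected cells, 8716 and 8009.8 in mock cells, and 8261 and 6584 in sample cells, and its mock change was 0.32 (SE 0.07, adjusted p = 2.85e-05). HNRNPH2, its near-identical paralog on the X chromosome, had 3062 and 3211 normalized reads in untransfected cells, 2526 and 2375 in mock cells, and 2552 and 1980.5 in sample cells. Every transfected library of HNRNPH2 lay below both untransfected ones, and its mock change was -0.34 (SE 0.08, adjusted p = 8e-05). Reads of these paralogs can be shared where their sequences are alike. HNRNPH3, a shorter relative, rose by 0.47 (SE 0.12) in mock cells in the authors' deposited table, while limma-voom gave 0.44 with an adjusted p of 0.175.

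Of the other hnRNP proteins 6 of 8 rose in mock cells. HNRNPU, also called SAF-A, which binds RNA and chromatin and organises the nucleus, had the most reads of all members, 15814.5 and 16503 normalized reads in untransfected cells, 22719.5 and 24619 in mock cells, and 21854 and 21642 in sample cells. Its transfected libraries all lay above the untransfected ones, and the mock change was 0.57 (SE 0.07, adjusted p = 8.99e-16). HNRNPK, which binds runs of cytosines in RNA and DNA, had 13676 and 14059 normalized reads in untransfected cells, 16009 and 16195 in mock cells, and 15853 and 14786 in sample cells. The groups did not overlap, although the mock change was small, 0.23 (SE 0.06, adjusted p = 0.000579). HNRNPC, which packages nascent RNA and binds uridine tracts, rose by 0.36, HNRNPL, a reader of CA repeats, by 0.28, HNRNPM by 0.23 and HNRNPR by 0.19 (SE of each, 0.07). The HNRNPU-like proteins HNRNPUL1 and HNRNPUL2 were not called, with deposited log2 fold changes of 0.06 (SE 0.08, adjusted p = 0.56) and -0.0012 (SE 0.09, adjusted p = 0.993).

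The tissue-type regulators of the PTB, RBFOX and MBNL families were the group with more falls than rises in mock cells, 3 lower and 2 higher of 5. MBNL2, a muscleblind protein that promotes adult-type splicing, had 1577 and 1665 normalized reads in untransfected cells, 395 and 311 in mock cells, and 460.0 and 581 in sample cells. Both transfected groups lay far below the untransfected pair, and the deposited mock change was -2.15 (SE 0.12, adjusted p = 1.17e-68), the largest of any member in either direction. MBNL1, its widely expressed paralog, went the other way, with 4592 and 4595 normalized reads in untransfected cells, 5797 and 5369.5 in mock cells, and 5841 and 5410.5 in sample cells, and a mock change of 0.30 (SE 0.07, adjusted p = 0.00012). PTBP1, which represses exons by binding pyrimidine tracts, had 7296 and 7624.5 normalized reads in untransfected cells, 11265 and 12158 in mock cells, and 11068 and 13337 in sample cells. Its transfected libraries lay above the untransfected pair, with a mock change of 0.67 (SE 0.07, adjusted p = 3.47e-20). PTBP3, a paralog of PTBP1, fell by 0.22 on the log2 scale (SE 0.08, adjusted p = 0.00953). RBFOX2, the RBFOX protein of non-neural cells, had 4822 and 4935 normalized reads in untransfected cells, 3990.0 and 3873 in mock cells, and 4060.3 and 3994 in sample cells, and fell by 0.29 (SE 0.07, adjusted p = 0.000119). Thus 1 paralog rose and another fell in each of the pairs MBNL1 and MBNL2, HNRNPH1 and HNRNPH2, and PTBP1 and PTBP3. These pairs were picked after their values were seen, and the paralogs HNRNPD and HNRNPDL rose together. MBNL1, HNRNPH1, HNRNPH2 and PTBP3 are not among the members called in every fit of the next paragraph.

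How far these calls depend on single libraries was tested with limma-voom. With all 6 libraries it called 28 members in mock cells, 24 higher and 4 lower, and 59% of 14884 genes. The deposited calls it did not make were SRSF5, HNRNPA3, HNRNPH3 and HNRNPR. Leaving out an untransfected or mock library leaves a single one in its group, and each such fit called fewer members. The share of all genes called in these fits is not given here, so the fall need not be particular to the members. The members called in every one of these fits were 13: SRSF1, SRSF2, SRSF3, SRSF6, SRSF7, TRA2B, HNRNPAB, HNRNPC, HNRNPF, HNRNPU, PTBP1, RBFOX2 and MBNL2.

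**Figure D2:**
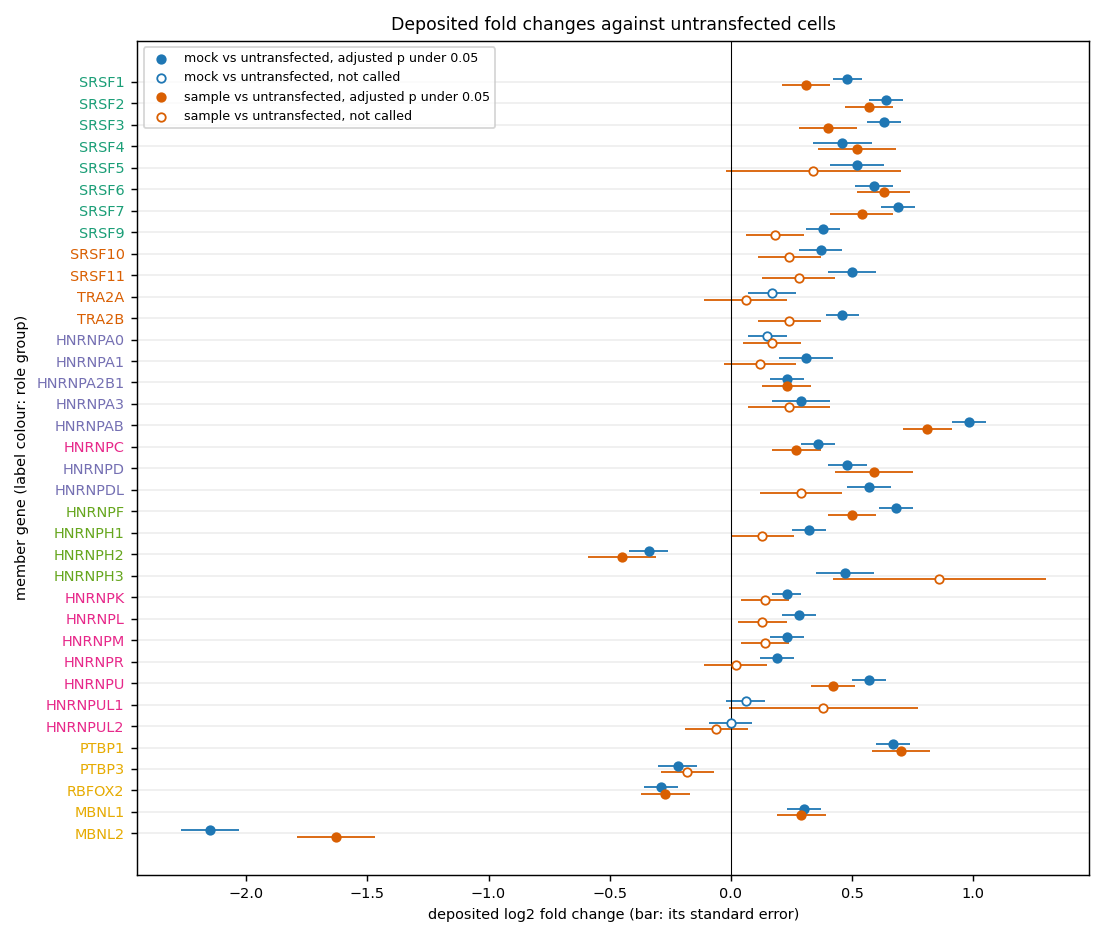
Deposited log2 fold changes of the 36 members against untransfected cells, with bars for their standard errors, in blue for mock and orange for sample cells, filled where the adjusted p is under 0.05. The SR proteins among the members lie between 0.38 and 0.69 in mock cells and MBNL2 at -2.15, while HNRNPH3, HNRNPUL1 and SRSF5 have the longest bars in sample cells.

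The second comparison set sample against untransfected cells, and asked what the light-controlled plasmids did to the same genes. It uses the same 2 untransfected libraries as the first, so the comparisons are not independent and are given side by side. Of the 36 members 14 were higher and 3 lower at an adjusted p under 0.05 in the authors' deposited table, which is 47.2%, beside 37.3% of 15558 genes tested. Called higher were 38.9% of members and 20.2% of all genes, and called lower 8.33% and 17.1%. Among the 7589 genes with a mean signal of at least 500, 49.6% were called, 32.6% higher and 16.9% lower, so the share of members called was near that of well-expressed genes. The median log2 fold change was 0.26 in members and 0.12 in well-expressed genes, and the members ranged from -1.63 to 0.86. Both sample libraries lay above both untransfected ones for 24 members and below for 4, against 36.6% and 37.3% of all genes tested and 49.3% and 29.8% of well-expressed ones.

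By role, 6 of 8 SR proteins rose in sample cells: SRSF1 by 0.31 (SE 0.10), SRSF2 by 0.57 (SE 0.10), SRSF3 by 0.40 (SE 0.12), SRSF4 by 0.52 (SE 0.16), SRSF6 by 0.63 (SE 0.11) and SRSF7 by 0.54 (SE 0.13) in deposited log2 fold change. These 6 are 75% of the group, beside 20.2% of all genes tested and 32.6% of well-expressed genes called higher. The adjusted p of SRSF6 was 1.96e-08 and that of SRSF4 0.00402. SRSF9 was not called (0.18, adjusted p = 0.238), and neither was SRSF5 (0.34, SE 0.36, adjusted p = 0.495), and 1 of its sample libraries lay within the range of the untransfected pair. None of the 4 SR-like factors was called by the authors' DESeq2 test, with values of 0.06 for TRA2A, 0.24 for SRSF10, 0.24 for TRA2B and 0.28 for SRSF11. At an unadjusted p under 0.05 the count was also 0, while limma-voom called SRSF10 (0.26, adjusted p = 0.0324).

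Of the A/B and D families 3 of 7 rose in sample cells. That is 42.9%, while 37.3% of all genes tested and 49.6% of well-expressed genes were called, and 20.2% and 32.6% were called higher. HNRNPAB was again the highest called member, at 0.81 (SE 0.10, adjusted p = 2.67e-15), and HNRNPD stood at 0.59 (SE 0.16, adjusted p = 0.000917) and HNRNPA2B1 at 0.23 (SE 0.10, adjusted p = 0.0403). HNRNPA0, HNRNPA1, HNRNPA3 and HNRNPDL were not called, at 0.17, 0.12, 0.24 and 0.29. In the F/H family HNRNPF rose by 0.50 (SE 0.10) and HNRNPH2 fell by 0.45 (SE 0.14, adjusted p = 0.00664). HNRNPH1 was not called (0.13), so the split of these paralogs was called in mock cells and not in sample cells, a difference that has no test of its own. HNRNPH3 had the largest value of any member, 0.86, but an SE of 0.44 and an adjusted p of 0.11.

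The remaining hnRNP proteins gave HNRNPU and HNRNPC as the called ones of 8, at 0.42 (SE 0.09, adjusted p = 2.25e-05) and 0.27 (SE 0.10, adjusted p = 0.0157). That is 25%, below the 37.3% of all genes tested and 49.6% of well-expressed genes that were called. HNRNPK, HNRNPL, HNRNPM, HNRNPR, HNRNPUL1 and HNRNPUL2 were not called, at 0.14, 0.13, 0.14, 0.02, 0.38 and -0.06. Of the tissue-type regulators PTBP1 rose by 0.70 (SE 0.12, adjusted p = 3.56e-08) and MBNL1 by 0.29 (SE 0.10, adjusted p = 0.0165) on the log2 scale. MBNL2 fell by 1.63 (SE 0.16, adjusted p = 2.39e-22) and RBFOX2 by 0.27 (SE 0.10, adjusted p = 0.0214). PTBP3 was not called (-0.18, adjusted p = 0.191). All 17 members called here were called in the same direction in mock cells, and 14 further members were called higher and 1 lower in mock cells alone. The share of all genes called alike in both comparisons is not given here. With the untransfected libraries shared, this overlap need not be particular to the members. Standard errors were larger here than in the first comparison, as the plot of deposited fold changes shows, and a call in one group alone does not show that the groups differ.

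In limma-voom 20 members were called in sample cells, 16 higher and 4 lower, beside 50.6% of 14884 genes. They included all 17 of the deposited calls and added SRSF10, HNRNPH3 and PTBP3. The count rose without sample library b and fell without untransfected library b. The share of all genes called in those fits is not given here. Without sample library a, SRSF5 went from 0.47 to -0.06 and HNRNPH1 from 0.13 to -0.05. Of the 17 deposited calls 11 were made in every one of these fits: SRSF2, SRSF3, SRSF4, SRSF6, SRSF7, HNRNPAB, HNRNPD, HNRNPF, HNRNPU, PTBP1 and MBNL2.

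**Figure D3:**
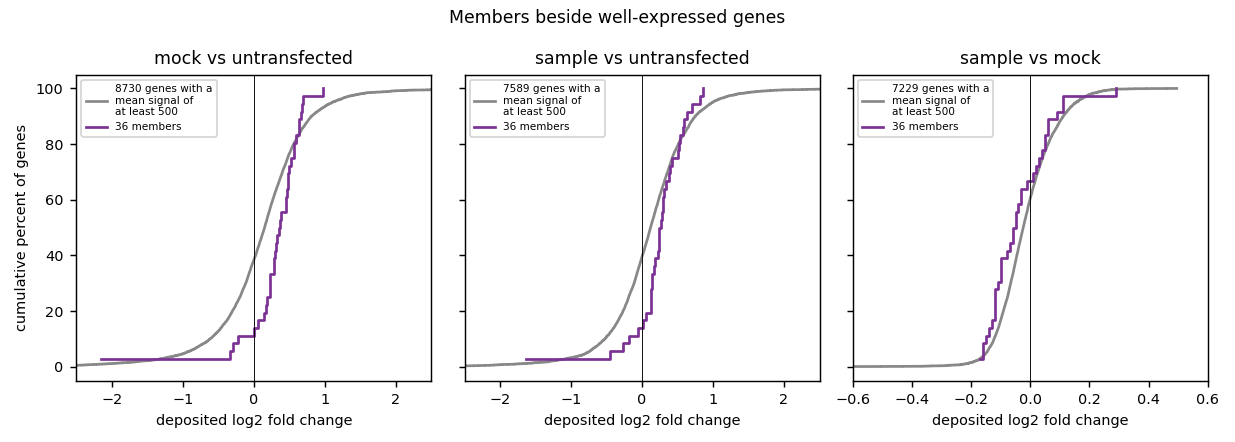
Cumulative percent of genes by deposited log2 fold change, with the 36 members in purple and the genes with a mean signal of at least 500 in grey, one panel per comparison and a narrower axis in the third. The members lie right of the grey curve over most of the first panel (medians 0.37 and 0.15), less far in the second (0.26 and 0.12) and around 0 in the third.

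The third comparison, sample against mock cells, is the one in which both groups were transfected. The sample plasmids do not include the mock plasmids, so a difference between the groups cannot be put down to the activator alone. No member was called among 36 in the authors' deposited DESeq2 table, and 1 had an unadjusted p under 0.05. The background was as low, at 0.0655% of 15278 genes tested, that is 10 genes, with 0.00655% higher and 0.0589% lower, and 0.111% of the 7229 well-expressed genes. In limma-voom no member and none of 14884 genes was called. Deposited log2 fold changes of the members ran from -0.17 to 0.29 with a median of -0.05, 12 of them positive and 24 negative. Well-expressed genes also had more negative than positive values, 4380 against 2849, with a median of -0.02. All genes tested ran from -0.85 to 0.51, against -6.02 to 7.84 in mock against untransfected cells. HBB, with 11.3 and 3.7 normalized reads in mock and 103.3 and 61.8 in sample cells, stood at 0.38. Deposited sizes were thus drawn strongly toward 0 in this comparison, and the narrow range of the members does not show like levels. Both sample libraries lay above both mock libraries for 4 members and below for 14, against 15.3% and 19.1% of all genes tested and 10.2% and 23.8% of well-expressed ones, and the other 18 overlapped.

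MBNL2 was the member with the unadjusted p under 0.05. Its sample libraries, at 460.0 and 581, lay above its mock libraries, at 395 and 311, while all of them were far below the untransfected pair. The deposited log2 difference was 0.29 (SE 0.12, adjusted p = 1), and limma-voom gave 0.46 with a 95% interval of 0.11 to 0.81 and an adjusted p of 0.96. For 31 of the 36 members the limma 95% interval of the sample against mock difference lay within 0.5 log2 units on either side of 0. The exceptions were SRSF5 (-0.50 to 0.44), HNRNPDL (-0.59 to 0.12), HNRNPH3 (-0.31 to 0.91), HNRNPUL1 (-0.30 to 0.74) and MBNL2. A lack of calls does not show that the groups are alike.

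Apart from MBNL2 these are the 4 members whose sample libraries lay more than 0.5 log2 units apart. HNRNPH3 had 592 and 554 normalized reads in untransfected cells, 779 and 797.5 in mock cells, and 759.6 and 1812 in sample cells. Only sample library b was high, at more than its partner and every other library. HNRNPUL1 had 2953 and 3138 normalized reads in untransfected cells, 3070.3 and 3200.4 in mock cells, and 2817 and 5629 in sample cells, with the same single high library. SRSF5 and HNRNPDL were lower in sample library b than in a, and HNRNPD was higher there. Over all members the SD of the log2 ratio of library a to b was 0.383 in the sample pair, 0.119 in the untransfected pair and 0.123 in the mock pair. No member differed by more than 0.5 log2 units in the other pairs, and 11.3% of 11485 genes did so in the sample pair.

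Without sample library a, limma-voom called 6 members in sample against mock cells, beside 5.65% of 14848 genes. HNRNPH3 was then at 1.20, HNRNPUL1 at 0.84 and HNRNPD at 0.38, and HNRNPDL at -0.56, TRA2B at -0.39 and SRSF3 at -0.34. Without sample library b it called none, and HNRNPH3, HNRNPUL1 and HNRNPD stood at -0.05, -0.15 and -0.11. These calls rest on the shallowest library alone, and its depth moves with them. The part of depth in them was not tested.

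**Figure D4:**
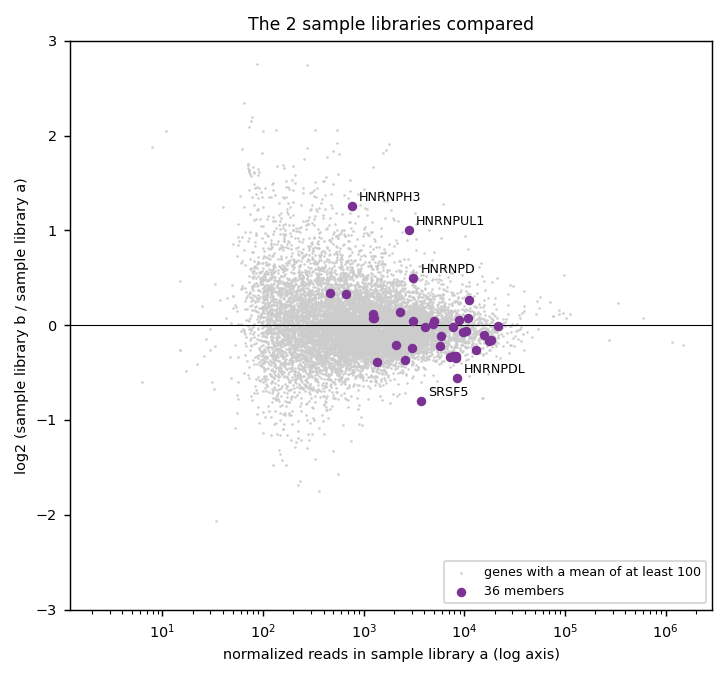
The 2 sample libraries compared gene by gene, with normalized reads in library a on a log axis and the log2 ratio of library b to a on the vertical axis, for genes with a mean of at least 100 (grey) and the 36 members (purple). HNRNPH3, HNRNPUL1 and HNRNPD lie above 0 and SRSF5 and HNRNPDL below, by 0.5 log2 units or close to it and more.

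Levels between genes were compared per kilobase for the 12 members whose entry matched a transcript with known exon length. In untransfected cells HNRNPF (4413 normalized reads per kilobase), SRSF9 (3897) and HNRNPAB (3328) were the highest of these, and PTBP3 (448) and MBNL2 (349.9) the lowest. In mock cells MBNL2 stood at 76.2 and PTBP1 at 3712 per kilobase, against 2365 for PTBP1 in untransfected cells. Of the 13 members with several entries the deposited log2 fold changes of these entries lay within 0.03 of each other, except in HNRNPA1. RefSeq entries of a gene share reads, so poison-exon forms were not measured apart.

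Around these regulators, 5 lists of other splicing genes, 126 in all, were counted in the same tables. Of 41 tested core spliceosome genes 36 rose and none fell in mock cells, with a median of 0.44, and 24 rose in sample cells, with a median of 0.34. Called were 87.8% and 58.5% of them, all higher. Of well-expressed genes 67.1% and 49.6% were called, and 43.9% and 32.6% were called higher. PRPF4, a protein of the U4/U6 particle, stood at 1.10 (SE 0.09) in mock and 0.98 (SE 0.12) in sample cells, and EFTUD2, a U5 GTPase, at 0.82 (SE 0.08) in mock cells. SNRPA1, of the U2 particle, was at 0.89 and 0.97, and SF3B4, of the same particle, at 0.87 and 1.21. SF1, the branch-point binding protein, was at 1.01 in sample cells (SE 0.36, adjusted p = 0.0177). In sample cells some of these values lean on library b, where SF3B4 had 1651 normalized reads against 637 in library a, and SF1 3953 against 2118. The SR proteins among the members and the core spliceosome thus had called shares above those of well-expressed genes in mock cells, which was not tested.

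Of the 8 tested SR protein kinases SRPK1 and PRPF4B were the ones called higher in mock cells (25%, beside 27.5% of all genes tested and 43.9% of well-expressed ones), at 0.85 (SE 0.07) and 0.34 (SE 0.09), and SRPK1, which phosphorylates SR proteins in the cytoplasm, rose by 0.74 (SE 0.10) in sample cells. None fell. The SR-related proteins rose in 13 of 23 cases in mock and 9 of 23 in sample cells, and none fell. Those called were thus 56.5% and 39.1%, below the shares of well-expressed genes, while the shares called higher were 43.9% and 32.6% in well-expressed genes. SCAF4, which acts at transcription termination, was at 0.86 in mock and 1.34 in sample cells, and SRRM1, a splicing coactivator, at 0.76 and 1.04, with both higher in sample library b (745 and 1281 normalized reads) than in a (309.8 and 735). RSRC2 and U2SURP were at 0.62 and 0.60 in mock cells, and SCAF1 and PNN at 0.78 and 0.46 in sample cells, with SCAF1 at 1936 normalized reads in library a and 3289.9 in library b. In exon junction complex and nonsense-mediated decay genes the counts were 10 of 15 and 6 of 15, none lower, with EIF4A3 at 0.77 and 0.59, SMG5 at 0.71 and 0.66, RNPS1 at 0.67 and 0.75, and MAGOH at 0.65 and 0.55. These are 66.7% and 40% called, all of them higher. Of well-expressed genes 67.1% and 49.6% were called, and 43.9% and 32.6% were called higher.

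Of the other RNA-binding splicing regulators 16 of 37 rose and 8 fell in mock cells, that is 43.2% and 21.6%, close to the 43.9% and 23.3% of well-expressed genes. In sample cells 13 of 35 rose and 5 fell, 37.1% and 14.3%, beside 32.6% and 16.9% of well-expressed genes. SYNCRIP, a relative of HNRNPR, was at 0.80 in mock cells. TARDBP and TIAL1 were at 0.76 and 0.74 in sample cells, where library b was the higher (2186 and 1836 normalized reads) and library a the lower (1392.5 and 1195). MBNL3, the third muscleblind gene, was lower like MBNL2, at -1.16 (adjusted p = 1.07e-05) in mock and -1.22 (adjusted p = 0.000975) in sample cells. NOVA2, a neuronal regulator, was at -2.19 (SE 0.33) in mock cells and was not called in sample cells (-0.35, adjusted p = 0.603), whose libraries held 20.3 and 135.9 normalized reads against 98.8 and 107.6 in untransfected cells. In sample against mock cells none of the tested genes of the 5 lists was called by the authors' DESeq2 test, 3 had an unadjusted p under 0.05, and limma-voom called none.

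**Figure D5:**
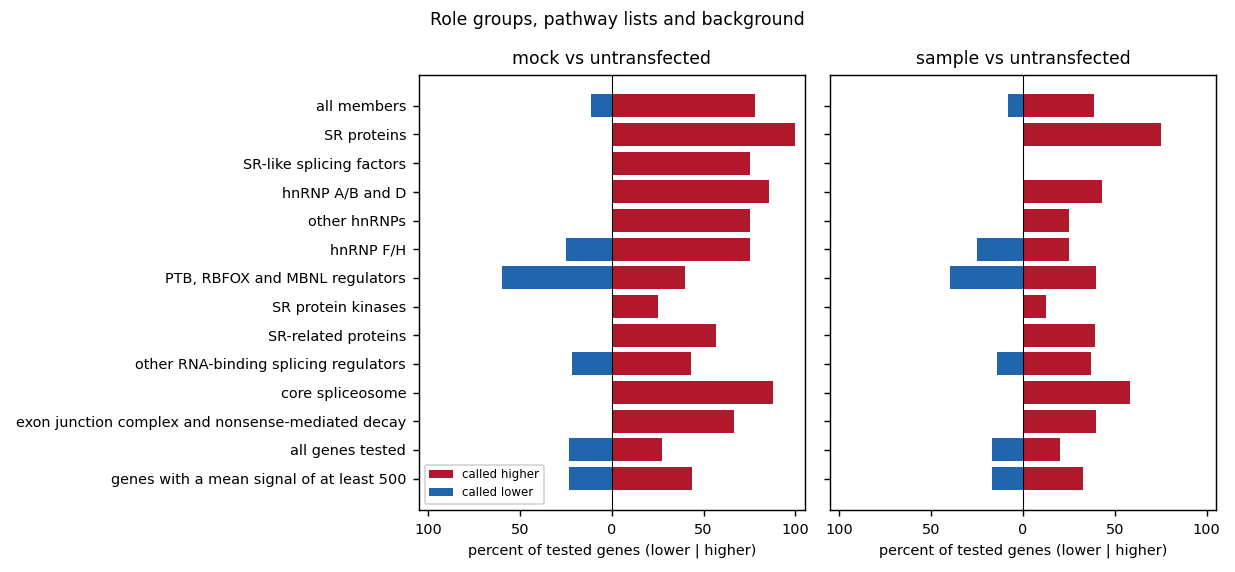
Percent of tested genes called higher (red, right) or lower (blue, left) in the authors' deposited tables, for all members, the 6 role groups, the 5 pathway lists and the 2 backgrounds, in mock and in sample against untransfected cells. The SR proteins among the members reach 100% higher in mock and 75% in sample cells. The PTB, RBFOX and MBNL regulators are the role group with the largest share lower, 60% in mock cells.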

How the data were processed

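RNA of 6 libraries was read as 3 tables, 1 per pair of groups. Per the file headers, the authors' deposited tables hold 40029 transcript entries, each with a mean signal (read counts over size factors), a log2 fold change with its standard error, a Wald score, and a p-value and adjusted p-value. Each table was fitted on its own 4 libraries. The submitters' processing notes name DESeq2, STAR, Bowtie and hg38, with versions, roles and counting rules not given in the sources used here. Directional libraries were made, per the labels' protocols.

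Library counts are not columns of these tables. They were solved from the 3 mean signals by lattice reduction, since each mean is whole counts divided by size factors. All 30527 entries with reads had a solution within a relative tolerance of 1e-14, checked on simulated data, and normalized reads are these counts over median-of-ratios size factors. Accessions matched symbols for 39720 entries (99.2%), and the 309 others held 0.0841% of reads. The authors' deposited DESeq2 results at an adjusted p under 0.05 are the main test. The design had named edgeR for deposited counts, but the tables used here have no count columns, so edgeR was not run. limma-voom (limma 3.58.1, R 4.3.3) was run on the recovered counts of genes with a mean of at least 10, with Benjamini-Hochberg adjustment. Without a library, the lone one of its group is assumed to vary like the others. Python 3.11.15, numpy 2.4.6, pandas 2.3.3 and matplotlib 3.10.9 were used.

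Members and lists were chosen with earlier results of these data known. All members are named. Values of every library are given for members called with a log2 fold change of at least 0.5 in size and for the 4 with the most reads, and for 6 others chosen after their values were seen (HNRNPH1, HNRNPH2, HNRNPH3, HNRNPUL1, MBNL1 and RBFOX2). From each pathway list up to 4 called genes per comparison are named by size, at a mean signal of at least 50, and not every gene that qualifies is reported here. The background of genes with a mean signal of at least 500 was chosen after seeing the data. Alternatives changed the threshold, filter, centring, entry, test, normalization and libraries.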

Additional observations from a re-analysis of the deposited data

How the results depend on the processing

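The count of members called was 32 in mock, 17 in sample against untransfected, and 0 in sample against mock cells. It stayed within 1.5 times of this at an adjusted p under 0.01, under both filters on low values, after centring, by the majority of entries, and in limma-voom with either normalization. Asking for a log2 fold change of at least 0.5 as well left 12 and 9. Leaving out each library in turn in limma-voom gave 15 to 22 for mock and 13 to 24 for sample against untransfected cells, and 0 to 6 for sample against mock cells, with 6 without sample library a. Of 432 single-member values, 347 kept their direction and side of the threshold in mock, and 384 in sample cells.

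Among the single-member values checked, signs changed only in members that the authors' deposited test did not call in that comparison. Sample against mock cells had 60 such values, beside 432 in each other comparison, so signs of further members there are not given. The deposited test called no member in sample against mock cells. In sample against mock cells, limma-voom without sample library a did call HNRNPH3, HNRNPUL1 and HNRNPD. HNRNPUL2 in mock cells was at 0.0026 after centring. The others changed when a library was left out in limma-voom, and their lowest and highest values were as follows. In mock cells HNRNPUL1 ran from -0.02 (without untransfected library a, with -0.0019 without mock library b) to 0.07. In sample against untransfected cells, the lowest values came without sample library a for SRSF5 (-0.06 to 0.76), TRA2A (-0.18 to 0.23), HNRNPDL (-0.02 to 0.56), HNRNPH1 (-0.05 to 0.29) and HNRNPR (-0.18 to 0.18, and -0.01 without untransfected library b). They came without untransfected library a for HNRNPA1 (-0.01 to 0.20) and without sample library b for HNRNPUL1 (-0.11 to 0.87). In sample against mock cells they came without sample library b for HNRNPH3 (-0.05 to 1.20), HNRNPUL1 (-0.15 to 0.84) and HNRNPD (-0.11 to 0.38). The causes were not tested. No paired analysis was possible because the deposited tables carry no library or replicate numbers. With 2 libraries a group, and 9579278 reads in 1 sample library, the precision in sample cells is limited.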

Other observations

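A few members differed within every pair of libraries in the same direction. SRSF5 was higher in library a than in b by 0.31 log2 units in untransfected, 0.28 in mock and 0.80 in sample cells. SRSF11 was higher by 0.29, 0.18 and 0.24, and HNRNPDL by 0.23, 0.19 and 0.56, in the same order. Of the 36 members 7 were higher in library a in all 3 pairs and 5 were lower, that is 19.4% and 13.9%, against 18% and 22% of 11485 genes, so the members as a set were not far from the background. These 3 genes were chosen after their values were seen. Letters a and b mark only the deeper and the shallower library of a pair, and whether depth has a part in this was not tested.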
